A study of Homo sapiens with 4 samples.

Results

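The genes described here are 9 RNA-binding regulators of pre-mRNA splicing: the muscleblind proteins MBNL1, MBNL2 and MBNL3, the polypyrimidine tract-binding proteins PTBP1, PTBP2 and PTBP3, and RBFOX2, QKI and CELF1. They were taken from the deposited lists of alternative splicing events by matching each Ensembl gene to its symbol by position, and they are 9 of 11931 Ensembl genes with an event in any library. The set was chosen by function and with sight of event numbers per gene of the same contrast in these 4 libraries, so all values below are a description and carry no test. Full-length cDNA was sequenced by the PacBio Iso-Seq method, with 2 libraries of siSTAMBPL1 cells and 2 of siNC cells. In both groups, cells of the hepatocellular carcinoma line Huh7, grown in serum-containing DMEM, were transfected with an siRNA by a lipofectamine reagent. It targeted STAMBPL1, a deubiquitinase, in the siSTAMBPL1 cells and was a negative control in the siNC cells. Nothing in the labels says that the 2 libraries of a group came from separate cultures, so the spread between them may be technical.

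Proteins of these families bind short sequence motifs in pre-mRNA and make the spliceosome use or pass over nearby exons. MBNL and CELF proteins often act in opposite directions on the same exons, PTBP1 mostly represses exons, and RBFOX2 and QKI promote or repress an exon depending on which side of it they bind. Most of these genes are themselves alternatively spliced, and several regulate exons of their own transcripts or of each other's.

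An event is a pair of alternative forms of one transcript region, and each list gives the transcripts of either form. Numbers given for an exon are those of its skipped exon event, which holds for 1 pair of flanking splice sites, so transcripts with other flanking sites are not in them. Transcripts are Ensembl transcripts or have an identifier that begins with PB; the PB ones, called long-read transcripts here, were built from the reads and not matched to Ensembl. The lists hold no read number, so an event is listed or not, and a form has a number of transcripts and no level. Fewer reads, less RNA of a gene and less varied RNA cannot be told apart in such lists. The siSTAMBPL1 libraries listed 119505 and 94432 events over all genes, against 140317 and 142215 in the siNC libraries, and 25463 and 17584 long-read transcripts, against 32307 and 32750. The siSTAMBPL1 mean was thus 0.757 of the siNC mean for events and 0.662 for long-read transcripts. The targeted gene STAMBPL1 had 1 and 1 events in the siSTAMBPL1 libraries, against 3 and 6 in the siNC libraries, with 0 and 0 long-read transcripts against 1 and 4. Of 20 hepatocyte markers, 2 and 2 had an event in the siSTAMBPL1 libraries, against 2 and 3 in the siNC libraries. ALB, APOA1, AFP, TTR and SERPINA1 were among the 16 with none in any library, so the lists say little on the labelled cell type. Markers of other cells had an event for 1 of 5 leukocyte genes in each library, 1 of 4 neuronal genes in each library, 1, 1, 0 and 1 of 4 stellate and fibroblast genes, and 0, 0, 2 and 1 of 3 endothelial genes (in the order siSTAMBPL1 1 and 2, siNC 1 and 2).

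First exons with a long-read transcript in both siNC libraries and in neither siSTAMBPL1 library lay in MBNL1, MBNL2, PTBP1, RBFOX2 and CELF1. The sequences before those of MBNL1, MBNL2 and PTBP1 are shown for that reason, with the other main first exon of MBNL2 and PTBP1 beside them. How common such first exons are over all genes was not worked out. The siSTAMBPL1 libraries had fewer long-read transcripts over all genes, and the exons in MBNL2 and CELF1 rest on 1 in each siNC library. Nothing is therefore read from this list of genes. Each sequence is the 250 bases before a RefSeq start on GRCh38.p14, from RefSeq, in lower case and 5′ to 3′. For MBNL1, the start called first is base 152268929, which lies in the first exon used by its long-read transcripts. It is not the first of the gene, as RefSeq MBNL1 begins upstream of it, at base 152243632. Capitals mark bases at which a first exon of the lists began in any library.
MBNL1, upstream of the first RefSeq start (chr3:152268679-152268928, + strand): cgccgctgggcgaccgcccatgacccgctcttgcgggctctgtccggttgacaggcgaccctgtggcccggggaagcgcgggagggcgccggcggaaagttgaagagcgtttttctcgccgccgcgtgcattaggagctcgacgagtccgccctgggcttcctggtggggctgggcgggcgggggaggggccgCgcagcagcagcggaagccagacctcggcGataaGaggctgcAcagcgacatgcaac
MBNL2, upstream of the distal first exon (chr13:97141584-97141833, + strand): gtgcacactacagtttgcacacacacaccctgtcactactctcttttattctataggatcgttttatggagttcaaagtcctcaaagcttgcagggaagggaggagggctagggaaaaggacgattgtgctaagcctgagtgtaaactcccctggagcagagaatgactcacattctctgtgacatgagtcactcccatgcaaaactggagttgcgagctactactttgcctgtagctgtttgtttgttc
MBNL2, upstream of the main first exon (chr13:97222083-97222332, + strand): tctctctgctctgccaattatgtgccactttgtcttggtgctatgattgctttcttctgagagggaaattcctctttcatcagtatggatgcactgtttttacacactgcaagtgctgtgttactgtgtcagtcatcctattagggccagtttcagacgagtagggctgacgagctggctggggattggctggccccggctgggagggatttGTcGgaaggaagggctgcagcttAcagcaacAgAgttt
PTBP1, upstream of the upstream first exon (chr19:797202-797451, + strand): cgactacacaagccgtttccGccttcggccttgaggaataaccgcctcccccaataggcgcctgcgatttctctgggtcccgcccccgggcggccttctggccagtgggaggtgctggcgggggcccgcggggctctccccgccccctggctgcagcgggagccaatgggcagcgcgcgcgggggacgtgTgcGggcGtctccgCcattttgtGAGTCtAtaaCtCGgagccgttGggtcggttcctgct
PTBP1, upstream of the downstream first exon (chr19:797734-797983, + strand): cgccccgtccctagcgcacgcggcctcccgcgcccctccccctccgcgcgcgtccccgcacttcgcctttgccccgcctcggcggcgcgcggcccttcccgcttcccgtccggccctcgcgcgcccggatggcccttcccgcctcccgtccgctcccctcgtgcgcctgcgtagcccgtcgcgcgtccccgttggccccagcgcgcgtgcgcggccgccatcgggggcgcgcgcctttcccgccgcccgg
The window of MBNL1 held 4 listed starts, and those of PTBP1 held 15 at the upstream and 0 at the downstream first exon. The downstream PTBP1 window was 82.4% G or C with 50 CpG pairs, and the upstream one was 69.2% with 26. The MBNL1 window was 70.8% G or C with 30 CpG pairs. Both MBNL2 windows were poorer, at 46.8% with 3 pairs before the distal exon and 50% with 4 pairs before the main one. The median over 35116 such windows of human genes was 58% with 11 pairs.

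Fewer events of the 9 genes were listed after the knockdown, and this was so mostly for their first exons. Together they had 316 and 267 events in the siSTAMBPL1 libraries, against 452 and 447 in the siNC libraries, a ratio of means of 0.648. CELF1 alone held most of them. Without it the numbers were 109 and 86 in the siSTAMBPL1 libraries, against 195 and 219 in the siNC libraries, a ratio of 0.471. The groups did not overlap in either sum, and both ratios lay below the 0.757 of all events. Scaled to the long-read transcripts of each library instead, the ratio over the 9 genes was 0.998. Over all genes, the siSTAMBPL1 to siNC ratio was 0.662 for long-read transcripts and 0.757 for events. This scaling therefore raises the ratio of all events too. The value for all events on this scale was not worked out, so 0.998 cannot be set against 0.757.

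After scaling to the events of each library, both siSTAMBPL1 libraries lay below both siNC libraries for 5 of the 9 genes, MBNL1, MBNL2, MBNL3, PTBP1 and RBFOX2. Among all 9933 genes with at least 5 events, 15% did so. For 0 of the 9 genes did both siSTAMBPL1 libraries lie above both siNC libraries, which 23% of all genes did. The difference of log2(scaled events + 1), siSTAMBPL1 minus siNC, had a median of -0.93 over the 9 genes, against 0.05 over all genes, and 6 of the 9 were below 0. As the genes were chosen with this contrast known, these shares are given as background and nothing is read from them. Over events with Ensembl transcripts in both forms, 2 of the 9 genes lay below, and the differences of MBNL2, PTBP1 and RBFOX2 turned to 0.15, 0.16 and 0.10. With raw events, both siSTAMBPL1 libraries lay below both siNC libraries for 6 of the 9 genes, the 5 named above and CELF1. Among all 9933 genes, 2534 did so, and this too is background only. No such share was worked out for long-read transcripts per gene.

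**Figure D1:**
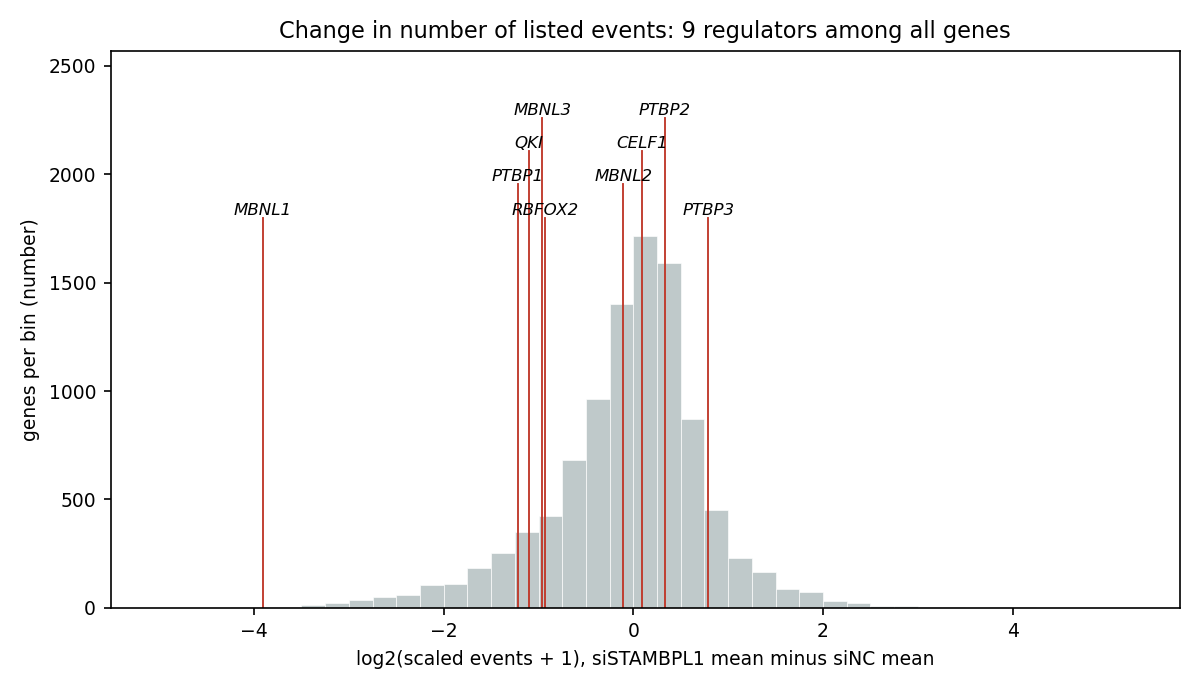
Difference between siSTAMBPL1 and siNC means of log2(scaled events + 1), in bins over 9933 genes (grey bars, number of genes) with the 9 regulators as labelled red lines of arbitrary height. MBNL1 sits at -3.91, PTBP1, QKI, MBNL3 and RBFOX2 between -1.22 and -0.93, and MBNL2, CELF1, PTBP2 and PTBP3 between -0.11 and 0.79.

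The difference between the groups was larger in alternative first exon events than in the others. First exon events of the 9 genes numbered 121 and 108 in the siSTAMBPL1 libraries, against 240 and 232 in the siNC libraries, a ratio of 0.485 (0.708 over all genes). For 6 of the 9 genes both siSTAMBPL1 libraries had fewer first exon events than both siNC libraries, and for 0 more. Over genes with at least 5 first exon events, 22.9% had fewer in this way and 4.34% had more. All other events numbered 195 and 159 in the siSTAMBPL1 libraries, against 212 and 215 in the siNC libraries, a ratio of 0.829 (0.791 over all genes). For other types, 2 of the 9 genes (MBNL1 and MBNL3) had fewer in both siSTAMBPL1 libraries than in both siNC libraries and 0 had more, against 23.9% and 4.93% of all genes with at least 5 such events. PTBP1, RBFOX2 and MBNL3 had 25 and 18 first exon events together in the siSTAMBPL1 libraries, against 104 and 98 in the siNC libraries, a ratio of 0.213. First exon events are pairs of starts, so each added start is paired with several others, and their number grows faster than the number of starts.

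**Figure D2:**
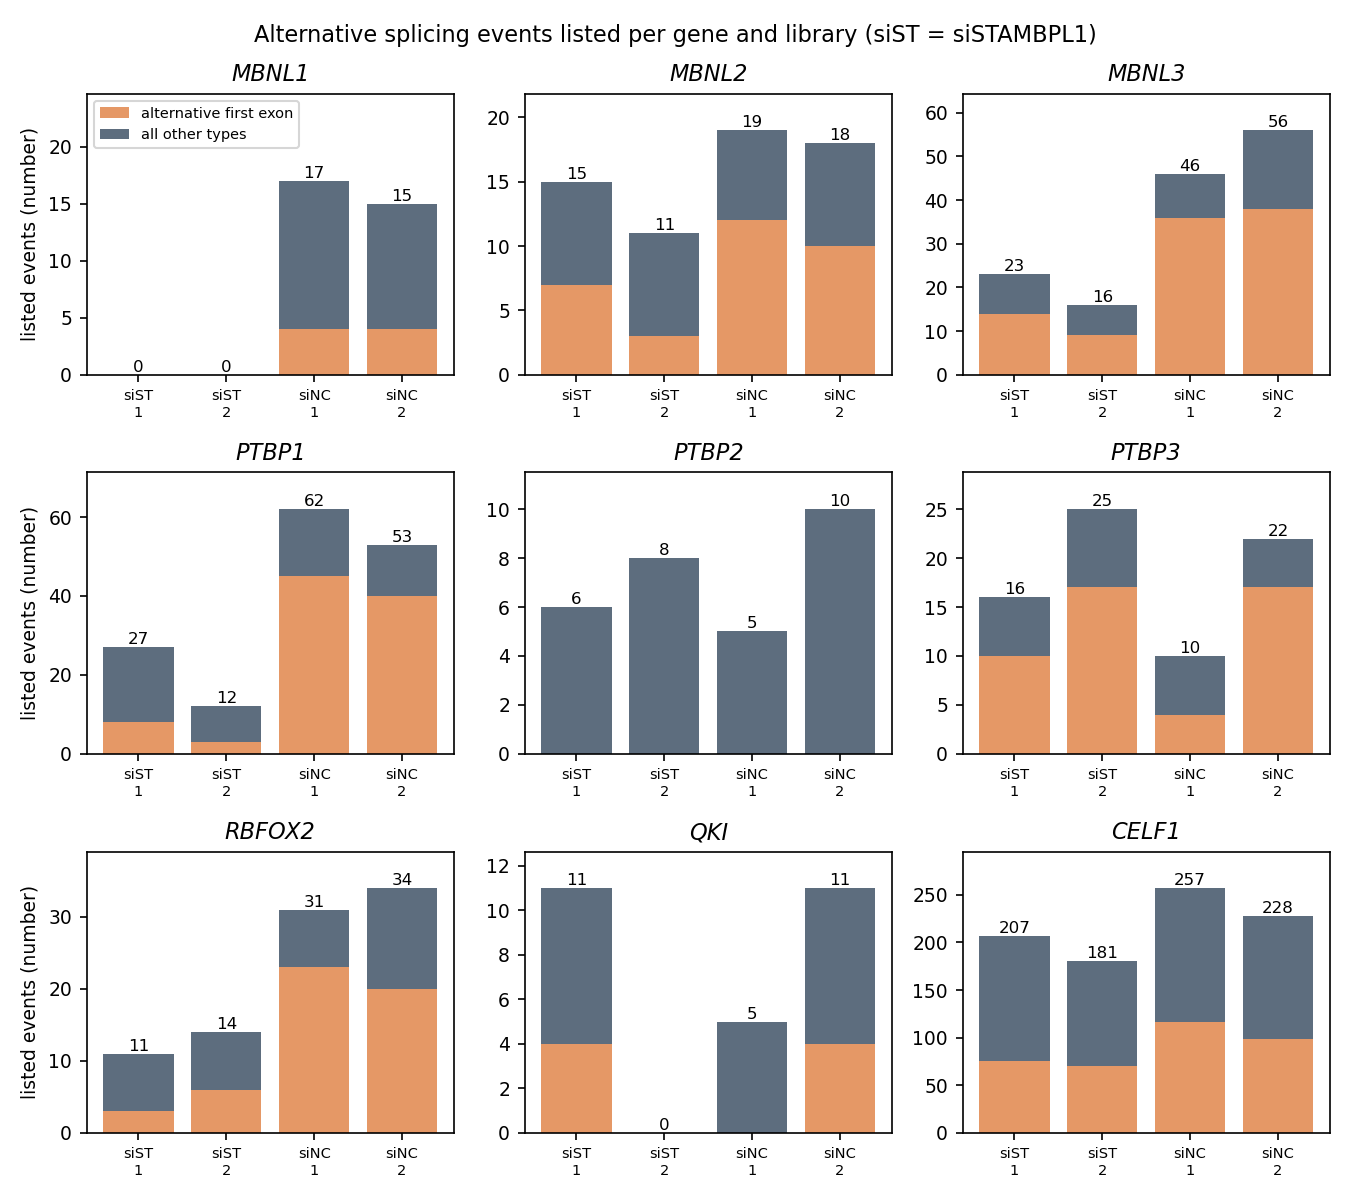
Number of listed events of each of the 9 genes in the 2 siSTAMBPL1 and 2 siNC libraries, split into alternative first exon events (orange) and all other types (slate), with the total above each bar and a separate axis per gene. MBNL1 had 0 and 0 events in the siSTAMBPL1 libraries, and the first exon part is where PTBP1, RBFOX2 and MBNL3 differ most.

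MBNL1 (ENSG00000152601, chr3:152243632-152465780, + strand) is the family member that promotes adult splicing patterns in many tissues. It had 0 and 0 events in the siSTAMBPL1 libraries, against 17 and 15 in the siNC libraries. It had 0 and 0 long-read transcripts in the siSTAMBPL1 libraries, against 2 and 1 in the siNC libraries. It was the 1 gene of the 9 listed in both siNC libraries and neither siSTAMBPL1 library, a pattern shown by 2.47% of all genes, and 0.503% showed the reverse. Its scaled log2 difference was -3.91, and against a group at 0 that value depends on the pseudocount (-4.86 with 0.5 in place of 1). Of 22 Ensembl transcripts, 0 and 0 were compatible with the siSTAMBPL1 lists, against 18 and 13 with the siNC lists. A compatible transcript takes part in a listed event and in no event between Ensembl transcripts that the library lacks. Long-read and compatible transcripts are counted from listed events, so their 0 and 0 follow from the 0 and 0 events. A gene on the opposite strand that overlaps MBNL1, ENSG00000229619, had 1 event in every library.

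Of the 21 distinct MBNL1 events, 11 were in both siNC libraries. The 54-base exon (chr3:152446704-152446757), which carries part of the nuclear localisation signal, was included in the 1 long-read transcript of its event in each siNC library. The 36-base exon (chr3:152455542-152455577) was included in 1 long-read transcript of siNC library 1 and skipped in 1 of siNC library 2. The 95-base exon (chr3:152456267-152456361), whose length shifts the frame, was included in 1 long-read transcript of siNC library 1. All 3 long-read transcripts in first exon events used the exon that ends at base 152269092, with starts at 152268872 and 152268914 in siNC library 1 and at 152268901 in siNC library 2. With 1 transcript a form, no share can be read from these exons. Over all genes, the 5 with the smallest distance to MBNL1 in log2(scaled events + 1) over the 4 libraries were COMMD4 (0.0775), BRME1 (0.261), PPP1R3E (0.371), CMC2 (0.39) and MCAM (0.407). Each of these was also at 0 and 0 events in the siSTAMBPL1 libraries, which comes with choosing them by their distance to MBNL1.

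MBNL2 (ENSG00000139793, chr13:97141834-97394120, + strand), the muscleblind protein best known from the brain, had 15 and 11 events in the siSTAMBPL1 libraries, against 19 and 18 in the siNC libraries. It had 6 and 3 long-read transcripts in the siSTAMBPL1 libraries, against 6 and 7 in the siNC libraries. The events did not overlap between groups, as for 2534 of 9933 genes that were lower in raw events, and the long-read transcripts did. The scaled log2 difference was -0.11 and turned to 0.09 when scaled by long-read transcripts. Its 54-base exon (chr13:97356796-97356849), the counterpart of that of MBNL1, was included in 2 and 0 long-read transcripts of the siSTAMBPL1 libraries, against 2 and 4 of the siNC libraries. It was skipped in 3 and 3 of the siSTAMBPL1 libraries, against 3 and 2 of the siNC libraries. So both forms were present in 3 of 4 libraries, and siSTAMBPL1 library 2 had the skipped form alone.

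The 36-base exon of MBNL2 (chr13:97365136-97365171) was included in 0 and 0 long-read transcripts of the siSTAMBPL1 libraries, against 0 and 1 of the siNC libraries. It was skipped in 4 and 3 of the siSTAMBPL1 libraries, against 4 and 4 of the siNC libraries, so skipping prevailed in all 4. The 95-base exon (chr13:97366459-97366553) was included in 4 and 3 long-read transcripts of the siSTAMBPL1 libraries, against 4 and 4 of the siNC libraries. It was skipped in 2 and 0 against 2 and 2, and inclusion prevailed throughout. Most MBNL2 transcripts began at the main first exon, which ends at base 97222531, with 5 and 3 in the siSTAMBPL1 libraries, against 5 and 6 in the siNC libraries. The distal exon, which ends at base 97141907 and has no Ensembl transcript in the lists, had 0 and 0 in the siSTAMBPL1 libraries, against 1 and 1 in the siNC libraries. Its 2 starts, at bases 97141834 and 97141836, lie at the RefSeq start that follows the window printed above.

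MBNL3 (ENSG00000076770, chrX:132369320-132490035, - strand), the family member linked to the inhibition of muscle differentiation, had 23 and 16 events in the siSTAMBPL1 libraries, against 46 and 56 in the siNC libraries. It had 8 and 8 long-read transcripts in the siSTAMBPL1 libraries, against 13 and 16 in the siNC libraries. Neither measure overlapped between groups, and for raw events 2534 of 9933 genes were lower in this way. Its 36-base exon (chrX:132384663-132384698) was included in 7 and 7 long-read transcripts of the siSTAMBPL1 libraries, against 13 and 15 of the siNC libraries. It was skipped in 1 and 0 against 0 and 0. Inclusion of the 36-base exon was therefore near complete in MBNL3, where skipping prevailed in MBNL2. A 45-base exon (chrX:132437899-132437943) was included in 4 and 4 long-read transcripts of the siSTAMBPL1 libraries, against 4 and 7 of the siNC libraries, and skipped in 3 and 4 against 5 and 6, so both forms were common in all 4. The skipped exon event of the 95-base exon was listed in siNC library 2 alone, with 11 transcripts that include it and 1 that skips it. The exon itself was not confined to that library. Its edge at base 132382272 is a flanking site of the 36-base exon event, which was on all 4 lists.

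MBNL3 used a pair of first exons in every library. The one that ends at base 132489814 had 4 and 4 long-read transcripts in the siSTAMBPL1 libraries, against 5 and 6 in the siNC libraries. The one that ends at base 132488851 had 2 and 4 in the siSTAMBPL1 libraries, against 4 and 6 in the siNC libraries. The groups overlap for the second exon and not for the first, and first exon events numbered 14 and 9 against 36 and 38.

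PTBP1 (ENSG00000011304, chr19:797452-812312, + strand), the most widely expressed family member and a repressor of neuronal exons, had 27 and 12 events in the siSTAMBPL1 libraries, against 62 and 53 in the siNC libraries. It had 6 and 1 long-read transcripts in the siSTAMBPL1 libraries, against 12 and 9 in the siNC libraries. Both measures were lower in both siSTAMBPL1 libraries, and library 2 of that group had a single long-read transcript. For raw events, 2534 of 9933 genes were lower in this way. First exon events numbered 8 and 3 in the siSTAMBPL1 libraries, against 45 and 40 in the siNC libraries, and the groups did not overlap. Its other events numbered 19 and 9 in the siSTAMBPL1 libraries, against 17 and 13 in the siNC libraries, which overlapped.

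The PTBP1 first exons fell in an upstream and a downstream group. The upstream exon ends at base 797505 and had 6 and 1 long-read transcripts in the siSTAMBPL1 libraries, against 9 and 5 in the siNC libraries. They began at 2 and 1 positions in the siSTAMBPL1 libraries, against 9 and 3 in the siNC libraries. A library cannot have more starts than transcripts, so nothing is read from these numbers on how starts were used. The downstream exon, which ends at base 798545, had 0 and 0 long-read transcripts in the siSTAMBPL1 libraries, against 3 and 3 in the siNC libraries, and a shorter form ending at base 798308 had 1 in siNC library 2. The starts of these long-read transcripts lay 532 to 587 bases after the RefSeq start of the upstream exon. They were at or after the RefSeq start that follows the second PTBP1 window printed above. The downstream exon itself was not confined to the siNC libraries. Its form that starts at base 798428, known from an Ensembl transcript, was listed in every library. Of the 35 events of the 9 genes listed in both siNC libraries only, 14 were of CELF1, 11 of MBNL1, 2 of MBNL3 and 8 of PTBP1. The 8 were pairs of a PTBP1 upstream start with the downstream start at base 798018. The share of all events listed in both siNC libraries only was 3.44%, and for both siSTAMBPL1 libraries only it was 1.09%.

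**Figure D3:**
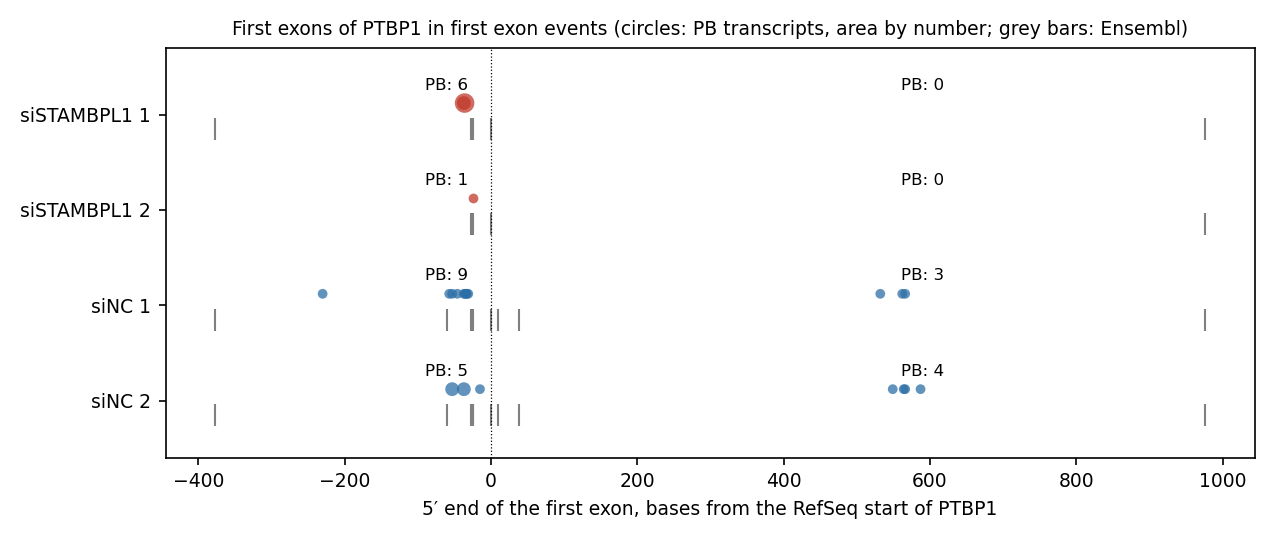
Starts of PTBP1 first exons in first exon events, as bases from the RefSeq start, per library; circles are long-read (PB) transcripts with area by their number, and grey bars are Ensembl transcripts on the list. The siSTAMBPL1 libraries have 6 and 1 long-read transcripts near 0 and 0 and 0 farther down, and the siNC libraries have 9 and 5 near 0 and 3 and 4 farther down, where the 4 of siNC library 2 include the shorter form.

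Of the skipped exon events of PTBP1, those of the 31-base, 78-base, 57-base and 34-base exons were listed in all 4 libraries. The 57-base exon (chr19:805513-805569) is a shorter form of the 78-base exon, and 0 long-read transcripts of any library included it. The 78-base exon (chr19:805492-805569), which lengthens the linker between RNA recognition motifs, was included in 2 and 1 long-read transcripts of the siSTAMBPL1 libraries, against 5 and 5 of the siNC libraries. It was skipped in 4 and 0 of the siSTAMBPL1 libraries, against 6 and 4 of the siNC libraries, so both forms occurred in every library but siSTAMBPL1 library 2, with its 1 transcript. The 34-base exon (chr19:807869-807902), whose skipping gives a transcript open to nonsense-mediated decay by which PTBP1 limits itself, was included in 5 and 1 long-read transcripts of the siSTAMBPL1 libraries, against 10 and 9 of the siNC libraries. In the event that joins it to the exon starting at base 808360, 0 long-read transcripts of any library skipped it. In siNC library 1, 1 long-read transcript joined the exon before it, which ends at base 806556, to base 808380 and so left the 34-base exon out. A 31-base exon (chr19:799413-799443) next to the first exon was included in 1 and 0 and skipped in 2 and 0 long-read transcripts of the siSTAMBPL1 libraries, against 3 and 1 included and 4 and 3 skipped in the siNC libraries.

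PTBP2 (ENSG00000117569, chr1:96721784-96823739, + strand), the neuronal family member, had 6 and 8 events in the siSTAMBPL1 libraries, against 5 and 10 in the siNC libraries, and its groups overlapped. It had 2 and 4 long-read transcripts in the siSTAMBPL1 libraries, against 1 and 5 in the siNC libraries. Its 34-base exon (chr1:96806419-96806452), which PTBP1 represses so that the skipped transcript is degraded, was included in 1 and 1 long-read transcripts of the siSTAMBPL1 libraries, against 1 and 4 of the siNC libraries. It was skipped in 1 and 2 of the siSTAMBPL1 libraries, against 0 and 1 of the siNC libraries. Skipped long-read forms of this exon were thus on 3 of the 4 lists. The 78-base exon of PTBP2 (chr1:96813029-96813106) was skipped in 1 long-read transcript and included in 0 in both siSTAMBPL1 libraries and in siNC library 2, with the next exon at base 96813273. With that exon at base 96813276, an event listed in siNC library 2 alone, it was included in 1 and skipped in 3. PTBP2 had no first exon event in any library.

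PTBP3 (ENSG00000119314, chr9:112217715-112379882, - strand), a family member mainly studied in blood-forming cells, had 16 and 25 events in the siSTAMBPL1 libraries, against 10 and 22 in the siNC libraries. It had 4 and 4 long-read transcripts in the siSTAMBPL1 libraries, against 1 and 5 in the siNC libraries. The groups overlapped in both, and siNC library 1 was the low one. Of the 9 genes, PTBP3 had 5 of the 13 events listed in both siSTAMBPL1 libraries only, and CELF1 had the other 8. Among the 5 was the skipped exon event of a 76-base exon (chr9:112297841-112297916). That of its 85-base form (chr9:112297832-112297916) was listed in siSTAMBPL1 library 2 and siNC library 2. The skipped exon event of a 170-base exon (chr9:112275844-112276013) with base 112297841 was on the siSTAMBPL1 lists alone. The one with base 112297832 was on all 4 lists. The junction to base 112297841 was not confined to the siSTAMBPL1 libraries. In a 5′ splice site event on all 4 lists, long-read transcripts that joined base 112276013 to it numbered 2 and 1 in the siSTAMBPL1 libraries, against 0 and 3 in the siNC libraries. A 34-base exon of PTBP3 (chr9:112330441-112330474) was skipped by all 4 and 3 long-read transcripts of its event in the siSTAMBPL1 libraries, against 0 and 4 in the siNC libraries, and included by 0 in all of them. This exon was named by its length alone. It follows the first exon that ends at base 112333470, unlike the 34-base exons of PTBP1 and PTBP2, and is not taken as their counterpart. Without siNC library 1, the scaled log2 difference of PTBP3 was 0.27 in place of 0.79.

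RBFOX2 (ENSG00000100320, chr22:35738736-36028824, - strand), a regulator of exons that switch between epithelial and mesenchymal cells, had 11 and 14 events in the siSTAMBPL1 libraries, against 31 and 34 in the siNC libraries. It had 1 and 3 long-read transcripts in the siSTAMBPL1 libraries, against 4 and 5 in the siNC libraries. Neither measure overlapped. First exon events numbered 3 and 6 in the siSTAMBPL1 libraries, against 23 and 20 in the siNC libraries, and the other types 8 and 8 against 8 and 14. A first exon that ends at base 35894813, with no Ensembl transcript in the lists, had 0 and 0 long-read transcripts in the siSTAMBPL1 libraries, against 2 and 2 in the siNC libraries. The distal exon that ends at base 36028240 had 1 long-read transcript in every library.

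The skipped exon events of short RBFOX2 exons listed in all 4 libraries had 1 form each among long-read transcripts. The 40-base exon (chr22:35756105-35756144), the brain-type exon of the family, was included in all 1 and 2 long-read transcripts of its event in the siSTAMBPL1 libraries, against 3 and 3 in the siNC libraries, and skipped in 0 of them. The 54-base exon (chr22:35778025-35778078) was included in 1 and 2 of the siSTAMBPL1 libraries, against 4 and 5 of the siNC libraries, also with 0 skipped. The skipped exon event of the 43-base exon (chr22:35752613-35752655), the muscle-type counterpart, was listed in siNC library 2 alone, included in 1 and skipped in 3. An event with the 43-base and 40-base exons as mutually exclusive forms was listed in all 4 libraries. It had 0 long-read transcripts of the 43-base form in each. A 32-base exon was skipped in every long-read transcript of its event, 1 and 2 in the siSTAMBPL1 libraries against 3 and 3 in the siNC libraries.

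QKI (ENSG00000112531, chr6:163414718-163578592, + strand), a STAR-family protein whose C terminus is set by the choice of its last exons, had 11 and 0 events in the siSTAMBPL1 libraries, against 5 and 11 in the siNC libraries. It had no long-read transcript in any library, so all its events rest on Ensembl transcripts. Both groups span a wide range, and the scaled log2 difference of -1.11 was 0.71 without siSTAMBPL1 library 2. The last exon pair of chr6:163569438-163569541 and chr6:163570694-163578592 was listed in siSTAMBPL1 library 1 and siNC library 2. The pair of the same shorter exon with chr6:163570694-163571101, a version that ends earlier, was listed in siNC library 1. Compatible Ensembl transcripts numbered 14 and 0 of 16 in the siSTAMBPL1 libraries, against 2 and 14 in the siNC libraries. In siSTAMBPL1 library 1 and siNC library 2 a single transcript, ENST00000361752, was the only one that could account for part of the list, and in siNC library 1 it was ENST00000537883.

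CELF1 (ENSG00000149187, chr11:47465937-47565539, - strand), which promotes fetal splicing patterns and the decay of mRNAs rich in GU, had 207 and 181 events in the siSTAMBPL1 libraries, against 257 and 228 in the siNC libraries. It had 32 and 34 long-read transcripts in the siSTAMBPL1 libraries, against 48 and 41 in the siNC libraries. The raw numbers were lower in both siSTAMBPL1 libraries, as were the raw events of 2534 of 9933 genes. Once scaled, the events of the groups overlapped, with a log2 difference of 0.09. First exon events numbered 75 and 70 in the siSTAMBPL1 libraries, against 116 and 99 in the siNC libraries. The first exon that ends at base 47552992 had 19 and 16 long-read transcripts in the siSTAMBPL1 libraries, against 30 and 22 in the siNC libraries. The one at 47565274 had 3 and 3 against 2 and 4.

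Shares were worked out for CELF1 alone, the gene of the 9 with the most long-read transcripts, and count transcripts and not reads. MBNL3 also had forms with at least 5 long-read transcripts in every library, and no shares are given for it. The CELF1 forms below were chosen after their values were seen, and exact 95% intervals cover counting error only. A pair of 3′ splice sites 3 bases apart (chr11:47476956 and 47476959) gave the longer exon in 66.7% and 48.4% of long-read transcripts in the siSTAMBPL1 libraries, against 41.3% and 40.5% in the siNC libraries. The intervals ran from 46.0% to 83.5% and from 30.2% to 66.9% in the siSTAMBPL1 libraries, and from 27.0% to 56.8% and from 24.8% to 57.9% in the siNC libraries. A 152-base exon (chr11:47499453-47499604, between exons at 47489024 and 47500861) was included in 61.5% and 62.5% in the siSTAMBPL1 libraries, against 78.3% and 87.5% in the siNC libraries. A pair of sites 12 bases apart gave the longer exon in 75% and 88.2% in the siSTAMBPL1 libraries, against 70.2% and 70.7% in the siNC libraries. The 80-base exon (chr11:47483453-47483532) was included in 93.8% and 97.1% in the siSTAMBPL1 libraries, against 89.6% and 92.3% in the siNC libraries. For these 4 forms the library values did not overlap between groups while the intervals of all libraries did, and the difference was not tested. The 152-base exon had another event, with the exon at 47552992 in place of 47500861. There it was included in 12.5% and 27.3% in the siSTAMBPL1 libraries, against 16.7% and 7.69% in the siNC libraries, and the groups overlapped. An 88-base intron between exons at 47472102 and 47472191 was retained in 13.3% and 30% in the siSTAMBPL1 libraries, against 22.7% and 56.5% in the siNC libraries, where the 2 siNC libraries differed more from each other than the groups did. Of the 14 CELF1 forms with at least 5 long-read transcripts in every library, which share transcripts, both siSTAMBPL1 libraries lay below both siNC libraries for 4 and above for 3. Over 2714 such forms of all genes, 10% lay below and 10.9% above.

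**Figure D4:**
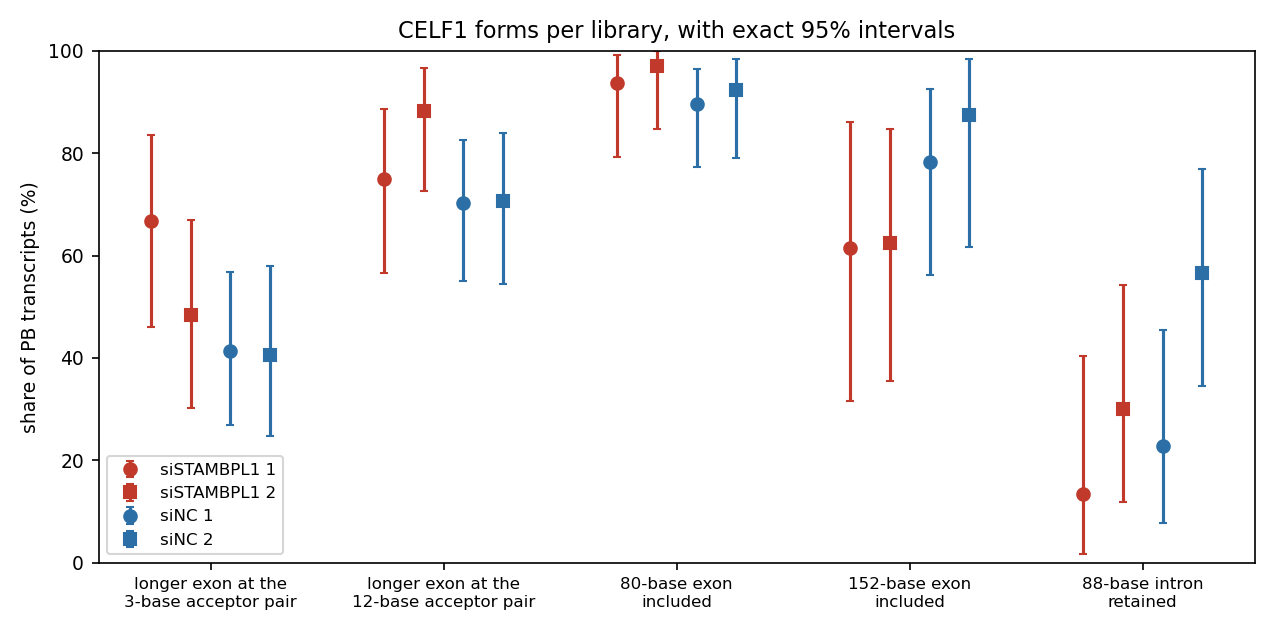
Share of CELF1 long-read transcripts with the named form in each library (points, %; circles are replicate 1 and squares replicate 2, red siSTAMBPL1 and blue siNC), with exact 95% binomial intervals. The intervals of all 4 libraries overlap for every form, from 66.7% to 40.5% at the 3-base site pair to 13.3% to 56.5% for the 88-base intron.

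Skipped exons of up to 60 bases or of a known regulated length made up 32 exons in the 9 genes, of which 15 have a length that keeps the reading frame and 17 one that shifts it. They gave 44 skipped exon events, because an exon can have several flanking pairs, and 16 of these were listed in all 4 libraries. Skipped exon events of all lengths numbered 54 and 53 in the siSTAMBPL1 libraries, against 70 and 72 in the siNC libraries, a ratio of 0.754. Without MBNL1 they numbered 54 and 53 against 61 and 64, a ratio of 0.856.

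**Figure D5:**
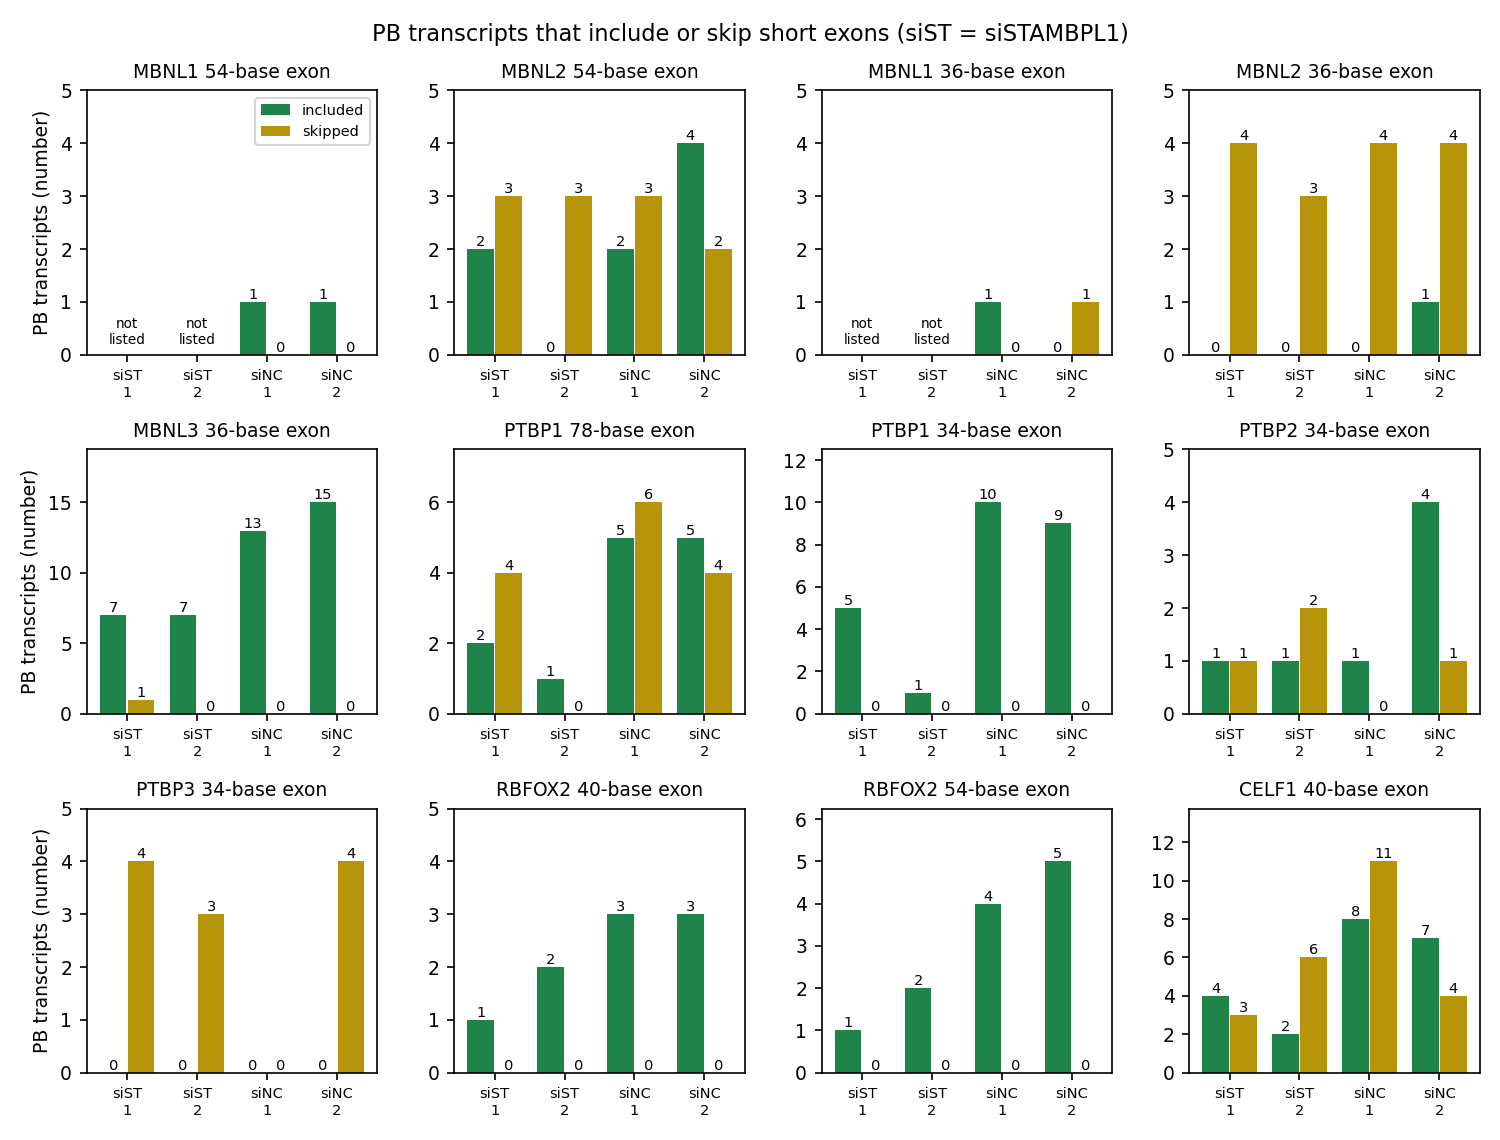
Number of long-read (PB) transcripts that include (green) or skip (ochre) 12 short exons of the 9 genes, in the 2 siSTAMBPL1 and 2 siNC libraries, with a separate axis per exon. The MBNL1 exons are on neither siSTAMBPL1 list, and the events shown for the 34-base exon of PTBP1 and the 40-base exon of RBFOX2 have 0 skipped transcripts in any library; transcripts with other flanking sites are not counted.

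The 9 genes gave 980 distinct events over the 4 libraries. Of these 90, or 9.18%, were listed in all 4, against 16% of all 287868 distinct events, and 709, or 72.3%, were in 1 library only, against 66.1%. Events in which each form has an Ensembl transcript numbered 106 of the 980, against 85625 of the 287868. Of these 106, 54 were in all 4 libraries, or 50.9%, against 49.8% over all genes. By gene, events listed in all 4 libraries numbered 48 of 573 in CELF1, 11 of 104 in PTBP1, 8 of 60 in RBFOX2, 7 of 35 in MBNL2, 7 of 112 in MBNL3, 5 of 48 in PTBP3, 4 of 15 in PTBP2, and 0 in MBNL1 and QKI.

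Of 41 other splicing regulators listed for comparison, 22 were matched and had at least 5 events. Both siSTAMBPL1 libraries lay below both siNC libraries after scaling for 4 of these 22, RBM38, FUBP1, HNRNPL and HNRNPH1, and above for 3, TIAL1, MATR3 and TARDBP. Their median log2 difference was -0.04. The difference between the 9 genes and these was not tested.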

How the data were processed

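Alternative splicing events of 4 PacBio Iso-Seq libraries, 2 siSTAMBPL1 and 2 siNC, were analysed. Per the file headers, each deposited list gives a gene, an event with its type and coordinates, and the transcripts of its forms, with no quantity (unit other: names as deposited by the authors). Coordinates are on hg38 (build from the submitters' processing notes). Not given in the sources used here are the aligner, the callers of transcripts and events, and the read numbers, so the depth is unknown and no floor for 0 is given. Ensembl genes were named by position against RefSeq GRCh38.p14 (at least 60% of event positions within 50 bases of the gene, 20% of its span, 1.5 times the next candidate), which gave 1 symbol to 10713 of 11931 genes, all 9 regulators among them; 205 had several candidates and 1013 none. Events per gene were divided by the library's events over their mean and compared as log2(value + 1) over 9933 genes with at least 5 events. All 9 genes were named; exons were named by a known regulated length or a length up to 60 bases, together with last exon events of QKI and events in both libraries of one group only. No test was made. The members and lists were chosen with earlier results of these data known. Alternatives were other scalings, a pseudocount of 0.5, other event sets, coordinates within 10 bases, and each library left out. Shares have exact (Clopper-Pearson) 95% intervals. Event parsing was tested on simulated events. Python 3.11.15, pandas 2.3.3, numpy 2.4.6, scipy 1.17.1 and matplotlib 3.10.9 were used.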

Additional observations from a re-analysis of the deposited data

How the results depend on the processing

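The ratio of summed events of the 9 genes, siSTAMBPL1 over siNC, was 0.648; it was 0.998 scaled by long-read transcripts, 0.86 scaled by library events, 0.754 for events with Ensembl transcripts in both forms, and, in alternatives added after seeing the data, 0.471 without CELF1 and 0.829 without first exon events. The 5 genes below both siNC libraries became 2 with Ensembl transcripts in both forms and 1 without first exon events; the 0 above became 2 scaled by long-read transcripts, 1 with Ensembl transcripts in both forms, 1 with at least 1 long-read transcript and 3 without first exon events, and 1 to 3 with a library left out. The 90 events in all 4 libraries became 54 with Ensembl transcripts in both forms and 42 without CELF1. The 35 events in both siNC libraries only became 13 with Ensembl transcripts in both forms, 21 without CELF1 and 20 without first exon events, and 50 to 278 with a library left out. The 13 in both siSTAMBPL1 libraries only became 0, 5 and 7 under those settings, and 14 to 145 with a library left out, which by construction asks for fewer libraries. Of 81 alternative log2 differences of single genes, 66 moved by less than the spread between libraries, 11 moved by more, and 4 turned the sign of a difference larger than its spread: MBNL2 to 0.089 scaled by long-read transcripts and, with Ensembl transcripts in both forms, MBNL2 to 0.15, PTBP1 to 0.16 and RBFOX2 to 0.10. Among the 66 and the 11, 7 turned the sign of a difference within its spread: QKI (to 0.71 without siSTAMBPL1 library 2), CELF1 (to -0.32 unscaled, -0.23 with Ensembl transcripts in both forms and -0.01 without siNC library 2) and PTBP2 (to -0.03 unscaled, -0.01 without siSTAMBPL1 library 2 and -0.09 without siNC library 1). The cause was not tested. No paired analysis was possible because the results come from no test; the mean of log2 differences within equal numbers equals the difference of group means given here. Each group has 2 libraries, read numbers are not known, and forms can rest on 1 long-read transcript, so no precision can be given for the counts.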
